A study of Homo sapiens with 50 samples.

Results

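Hairpins against the protein arginine methyltransferases were followed in a screen of IMR90 cells, normal human fibroblasts from lung whose cultures cease to divide after many passages, a state called replicative senescence. The members were all rows of the hairpin table whose gene name was exactly CARM1, PRMT1, PRMT2, PRMT3, PRMT5, PRMT6, PRMT7 or PRMT8. They numbered 40 of 3443 short hairpin RNAs (shRNAs), 5 for each of 8 genes, and 0 further hairpins named one of these genes among several. Lentiviruses carrying the hairpins, each built to lower the expression of its target, infected cells kept at 3% oxygen (multiplicity of infection 0.3). The hairpins had been split at random among starting pools that were mixed in all pairwise ways, and each mixture infected 1 of 10 plates. Genomic DNA was taken at population doubling (PD) 40 from proliferating cells, every 5 doublings thereafter, and last at PD60 from senescent cells. The 50 samples thus form 5 groups of 10 plates, all of 1 cell line infected before the first sampling, for which the labels name no difference but population doubling and the hairpin mixture of each plate. The screen asked which chromatin regulators limit replicative lifespan, on the principle that cells with less of such a regulator keep dividing and take over the culture.

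Protein arginine methyltransferases transfer methyl groups from S-adenosylmethionine to arginines of histones, RNA-binding proteins, splicing factors and signalling proteins. Type I enzymes (PRMT1, PRMT2, PRMT3, CARM1, PRMT6 and PRMT8) leave asymmetric dimethylarginine, the type II enzyme PRMT5 leaves symmetric dimethylarginine, and the type III enzyme PRMT7 leaves monomethylarginine. On histones these marks accompany either transcriptional activation, as with PRMT1 and CARM1, or repression, as with PRMT5 and PRMT6.

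The values were counts of sequence tags per hairpin, in 1 column per population doubling, with no column per plate. They hold no expression values, so the knockdown reached by each hairpin and the identity of the cells were not checked here. Column totals lay between 8270745 tags (PD60) and 11505688 tags (PD55). Abundances below are CPM, the count divided by the column total and multiplied by 1000000, and series of 5 values run from PD40 to PD60. With 1 column per time there was no replicate check: the 95% intervals given for ratios are exact and cover counting error only, as PCR copies carry no molecular identifier here, and no value measures the spread between plates. Abundance in a pool is relative, so a hairpin can lose share because others gained it. Fewer cells carrying a hairpin and less amplified DNA per cell cannot be told apart.

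The arginine methyltransferase hairpins lost nearly all of their share of the library. They made up 1.16% of the hairpins and held 1.92% of all tags at PD40 (Clopper-Pearson 95% interval 1.91 to 1.93). Their share was then 1.15% (PD45), 0.752% (PD50) and 0.452% (PD55, interval 0.449 to 0.456), and 0.0512% at the end (PD60, interval 0.0496 to 0.0527). Different hairpins led the set at different times. PRMT5 TRCN0000107089 supplied 45.4% of the members' tags at PD40 (45.2 to 45.7), CARM1 TRCN0000007168 supplied 75.6% at PD55 (75.2 to 76.0), and PRMT6 TRCN0000034686 supplied 66.0% at PD60 (64.6 to 67.4). Without the CARM1 hairpin the set's share at PD55 was 0.110% of all tags, and without the PRMT5 hairpin its share at PD40 was 1.05%.

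The typical member started above the typical hairpin and went the same way. Its median abundance was 226, 80.1, 13.7, 1.61 and 0.242 CPM along the 5 columns, against 118, 38.8, 7.78, 0.956 and 0.121 CPM over all hairpins. Of the 40 members, 24 lay in the 2 upper quintiles of PD40 abundance, and 5 in the lowest. At PD60 16 members had 0 tags, 13 had 1 to 9 tags and 11 had 10 or more. Of the 38 members with at least 10 tags in either column, 14 were at 0, against 43.8% of all hairpins that met this minimum. That comparison does not allow for the members' higher start. By quintile of PD40 abundance, from the lowest up, 5 of 5, 4 of 5, 3 of 6, 4 of 14 and 0 of 10 members were at 0. Over all hairpins of these quintiles the shares at 0 were 84.4%, 69.8%, 45.8%, 19.2% and 1.45%. A count of 0 at PD60 allows up to 0.363 CPM, the level of 3 tags.

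Counted against PD40 on a scale of log2(CPM + 1), for the 38 members with at least 10 tags in either column, 38 were over 2-fold lower at PD60 and 0 were over 2-fold higher. Over all 3418 hairpins that met the same minimum, the share over 2-fold lower was 95.3% and the share over 2-fold higher 2.28%, so the members' count was near the background. The 2 members under the minimum were CARM1 hairpins with 7 and 4 tags at PD40. At earlier times the number over 2-fold lower was 25 at PD45, 35 at PD50 and 37 at PD55, where the background was 63.2%, 81.9% and 91.7%. The number over 2-fold higher was 1 at each of these times, where 5.73%, 4.94% and 2.92% of all hairpins were. It was CARM1 TRCN0000007168 each time, so 1 of the 38 was over 2-fold higher in any later column, against 8.51% of all hairpins. Lower at every step, or at 0 on both sides of a step, were 26 of the 38 and 64.2% of all hairpins. These comparisons share the PD40 column. Directions depend on the scaling: with trimmed mean of M-values (TMM) scaling, 26 of the 38 were over 2-fold lower at PD60 and 6 over 2-fold higher, against 64.8% and 18.6% of all hairpins, whose median was then -1.87. The table's 1 non-target hairpin, a control without a gene to lower, had 4562, 1775, 669, 133 and 39 tags. Its log2 fold change at PD60 was -6.54 by column totals, where the members' median was also -6.54, and 0.004 with TMM scaling, where the members' median was -2.13. A single control hairpin gives no spread against which to set this difference. The equal values by column totals depend on the 1 CPM added before taking logs. That addition limits how low a hairpin with few tags can go, and the median over all 40 members at PD60 was 0.242 CPM. It affects the control's 39 tags less, so the equality does not show that a typical member fell as the control did.

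CARM1 (also called PRMT4) is a coactivator enzyme that methylates histone H3 and works with p300 and the p160 coactivators. Its hairpins were the most spread of the 8 genes at PD55, with an SD of 5.10 log2 units over the 3 that met the minimum. TRCN0000007168 had 249, 1421, 2949, 3421 and 33.9 CPM. Its share grew over each of the first 3 steps, and at PD60 its share was below its own start. Among all hairpins of its quintile of PD40 abundance it still stood high at PD60, at percentile 90.8. Its log2 fold change was then -2.85, where the quintile's median was -7.18, and 3.89 with TMM scaling. Relative to PD40 it was 5.70-fold higher at PD45 (95% counting interval 5.45 to 5.97), 11.8-fold at PD50 (11.3 to 12.4) and 13.7-fold at PD55 (13.1 to 14.3), and 7.37-fold lower at PD60. It climbed from rank 956 of the library at PD40 to rank 39 at PD55 and was at rank 335 at PD60. From PD55 to PD60 alone it was 101-fold lower, from 39365 tags to 280. Of the 50 most abundant hairpins at PD55, 27 were over 2-fold lower at PD60, and this hairpin had the largest loss among them, a comparison made with its values in view. In the whole library 56 hairpins were over 2-fold higher at PD45, PD50 and PD55. At PD60 27 of these 56 were still over 2-fold higher and 16 were over 2-fold lower, the CARM1 hairpin among the latter.

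The other CARM1 hairpins did not share this course. TRCN0000011071 had 106, 158, 24.2, 0.782 and 0 CPM. It was 1.48-fold higher at PD45 (1.36 to 1.61) and at least 293-fold lower at PD60, taking 3 tags for the 0 counted. The remaining CARM1 hairpins, TRCN0000007166, TRCN0000007167 and TRCN0000007169, started at 7, 117 and 4 tags and were all at 0 from PD55 on. They lay in the lowest quintile of PD40 abundance, so only 2 CARM1 hairpins were counted deeply enough for a course.

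PRMT1, the enzyme responsible for most asymmetric dimethylarginine in mammalian cells, also had a hairpin that departed from the rest. TRCN0000035930 had 517, 871, 702, 236 and 36.9 CPM. It was above its start at PD45 and PD50 and below it afterwards: 1.69-fold higher at PD45 (1.62 to 1.75), 1.36-fold higher at PD50 (1.31 to 1.41), 2.19-fold lower at PD55 and 14.0-fold lower at PD60. TRCN0000035931, the PRMT1 hairpin with the lowest log2 fold change at PD60, had 219, 100, 9.32, 0.782 and 0.242 CPM. That last value was 2 tags, a ratio to PD40 of 0.00110 (0.000133 to 0.00399). PRMT1 TRCN0000035933, chosen after its values were seen, lost its share earliest, with 124, 3.99, 0.472, 0 and 0 CPM. It was 31.1-fold lower at PD45, while the remaining PRMT1 hairpins were 4.99-fold and 6.01-fold lower then.

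PRMT8 is the closest relative of PRMT1, carries a lipid anchor to the plasma membrane and is known mainly from brain. All 5 of its hairpins started within a narrow range, 208 to 342 CPM, in the same quintile of PD40 abundance. TRCN0000034752, the most abundant at both ends, had 342, 210.5, 75.2, 26.7 and 5.92 CPM, and was 57.7-fold lower at PD60. TRCN0000034749 had 302, 44.4, 4.13, 0.348 and 0 CPM, and was at least 832-fold lower at PD60. At PD45 the former was 1.62-fold and the latter 6.80-fold lower, from like starts. PRMT8 TRCN0000034751, picked with its values in view, had 232, 348, 126, 25.5 and 2.54 CPM. At PD45 it was 1.50-fold higher than at the start (1.42 to 1.59).

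PRMT6 is a mainly nuclear enzyme that methylates histone H3 and is known as a transcriptional repressor. Its hairpins started highest, at a median of 460 CPM with 4 of 5 in the top quintile. All 5 still had tags at PD60, from 1 to 2793. At PD60 1.45% of all hairpins in the top quintile were at 0, and 19.2% in the next, where PRMT6 TRCN0000034688 lay. TRCN0000034686 had 1011, 344.5, 167, 138 and 338 CPM. It was the member with the smallest loss at PD60, 2.99-fold lower (ratio 0.334, interval 0.320 to 0.349), and it reached rank 130 of the library. From PD55 to PD60 it was 2.45-fold higher, from 1586 tags to 2793. A higher value at PD60 than at PD55 was seen in 4 of the 38 members and in 10.6% of all hairpins. The 3 others were 1 PRMT1 and 2 PRMT7 hairpins with 1 to 9 tags at PD60. PRMT1 TRCN0000035929 and PRMT7 TRCN0000035150 had 1 tag at PD55 and at PD60, so only the smaller PD60 total made them higher. PRMT7 TRCN0000035149 had 7 and 9 tags. PRMT6 TRCN0000034685 stood at the other end, with 460, 56.6, 10.1, 2.26 and 0.121 CPM. Its 1 tag at PD60 gave a ratio of 0.000263 (interval 6.65e-06 to 0.00146).

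PRMT2, an enzyme with an SH3 domain that acts as a nuclear receptor coactivator, had early losses in 2 hairpins. TRCN0000035894 had 35.6, 0.569, 0.118, 0 and 0 CPM, and was 62.5-fold lower at PD45. PRMT2 TRCN0000035898, chosen after its values were seen, had 63.8, 2.50, 0, 0.0869 and 0 CPM and was 25.5-fold lower at PD45. With PRMT1 TRCN0000035933 they had the largest losses of the 38 members at the first step. TRCN0000035896 had 803, 286, 155, 88.0 and 15.1 CPM and the smallest loss of the 5 at PD55 and PD60, 9.12-fold and 53.1-fold. At PD45 and PD50 TRCN0000035895, picked with its values in view, had lost less, 1.78-fold and 2.89-fold. TRCN0000035897 had 358, 169, 26.5, 3.22 and 0.242 CPM, the last of them 2 tags (ratio to PD40 0.000675, interval 8.18e-05 to 0.00244). Its log2 fold change of -8.18 was the lowest of the gene.

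PRMT3, a cytosolic enzyme with a zinc finger that methylates a protein of the small ribosomal subunit, had hairpins that started at 75.7 to 346 CPM. TRCN0000034569 had 162, 74.0, 33.3, 8.52 and 8.46 CPM, nearly level over the last step and 19.1-fold lower at PD60. TRCN0000034572 had 346, 86.2, 23.6, 8.00 and 0.242 CPM and ended at 2 tags (ratio to PD40 0.000699, interval 8.47e-05 to 0.00253). At PD55 these 2 hairpins had almost the same abundance, 98 and 92 tags, and at PD60 they had 70 and 2. The other 3 ended at 0 to 6 tags.

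PRMT5, which works with the cofactor MEP50 and makes most symmetric dimethylarginine, had the most abundant member. TRCN0000107089 ranked 7 in the whole library at PD40 and had 8735, 5129, 2488, 445 and 35.2 CPM. Each step took a larger part of it: 1.70-fold, 2.06-fold, 5.59-fold and 12.7-fold lower than the column before, 248-fold in all. TRCN0000107088 had 1130, 569, 120, 11.7 and 1.09 CPM and was 1038-fold lower at PD60. Its log2 fold change of -9.08 was the lowest of the 38 members on the scale with the pseudocount. By plain ratio PRMT6 TRCN0000034685 was further down, 3806-fold lower on its 1 tag and 1269-fold lower taking 3 tags. PRMT5 TRCN0000107087, with the highest log2 fold change of its gene, had 24.5, 41.4, 5.31, 0.0869 and 0 CPM. It was 1.69-fold higher at PD45 (1.43 to 2.02). Its low start limits how low its log2 fold change can go.

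PRMT7, which leaves monomethylarginine, had the smallest SD over hairpins at PD60, 0.50 log2 units. At PD55 its SD was 1.515, above those of PRMT2 (1.27), PRMT3 (0.913) and PRMT5 (0.95) and below those of the other genes. TRCN0000035153 had 353, 144, 16.9, 3.82 and 1.09 CPM. TRCN0000035150 had 104, 35.5, 4.01, 0.0869 and 0.121 CPM, and TRCN0000035151 had 218, 30.3, 4.48, 0.261 and 0 CPM. At PD60 all 5 PRMT7 hairpins had 0 to 9 tags, at most 1.09 CPM. At such counts, near or under the pseudocount of 1 CPM, the log2 fold change mostly follows the starting abundance. The PRMT7 hairpins were 2.45-fold to 7.20-fold lower at PD45, so none of them was above its start at that time. Of the 38 members, 6 were higher at PD45 than at PD40, against 17.9% of all hairpins: 2 each for CARM1 and PRMT5 and 1 each for PRMT1 and PRMT8.

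Averaged over hairpins, 7 of 8 genes lay below the middle of the library at PD60. The mean log2 fold change was -7.07 for PRMT7 (SD over hairpins 0.50, 5 hairpins), -6.76 for PRMT8 (SD 1.14), -6.60 for PRMT5 (SD 1.84), -6.59 for PRMT2 (SD 1.36) and -6.42 for PRMT3 (SD 1.48). It was -6.07 for PRMT1 (SD 1.53), -5.92 for PRMT6 (SD 2.85) and -4.49 for CARM1 (SD 2.02, 3 hairpins). The median over 631 genes with at least 3 hairpins was -5.59. With TMM scaling 6 of the 8 genes lay below the median over genes, and with the summed tags of each gene 5 did. The order of the genes is not resolved, because neighbouring means differ by less than the SD between hairpins of 1 gene. At PD45 3 of the 8 genes were below the median over genes, at PD50 5 and at PD55 7. CARM1 stood above 98.1%, 97.6%, 97.0% and 83.5% of genes in the 4 later columns. At PD55 its mean was -2.00, from TRCN0000007168 at 3.77, TRCN0000007167 at -3.86 (0 tags) and TRCN0000011071 at -5.91 (9 tags). The median over genes was then -4.61. Without TRCN0000007168 the CARM1 mean at PD60 was -5.30, over 2 hairpins that each had 0 tags there.

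These means have to be read beside the members' higher starting abundance, which fixes how far a lost hairpin can go. Each member was therefore ranked among all hairpins of its own quintile of PD40 abundance. At PD60 20 of 38 members lay below the middle of their quintile and 18 at or above it. Along the 4 later columns the median percentile was 41.7, 37.0, 40.3 and 39.2, with 24, 24, 22 and 20 members below the middle. PRMT2 hairpins had low median percentiles throughout, 21.1, 15.3, 18.9 and 20.5 at the same 4 times. PRMT7 was at 34.6, 25.9, 17.9 and 56.3, so at PD60 it had the lowest of the 8 means but a middle position for its starting abundance. PRMT6 went from 20.0 at PD45 to 29.1, 48.3 and 63.6. In the quintile with the highest PD40 abundance the 10 members had a median log2 fold change of -7.66 against -6.24 for all hairpins there, and in the next quintile the 14 members had -6.95 against -7.18. Among hairpins at 0 tags the order within a quintile only repeats starting abundance, and 14 of the ranked members were at 0 at PD60.

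The columns allowed 1 test, that of a straight-line slope of log2 abundance against population doubling. It used edgeR's quasi-likelihood test with TMM scaling, and its error is the departure from a straight line. Of 36 members tested, 12 fell and 1 rose at an adjusted p under 0.05, where 30.5% of all hairpins tested fell and 11.4% rose. The share falling was near the background. The 12 were 3 of 5 PRMT1 hairpins, 2 of 4 for PRMT2, 2 of 5 each for PRMT7 and PRMT8, 1 of 5 each for PRMT3, PRMT5 and PRMT6, and 0 of 2 for CARM1. Slopes among them ran from -0.56 log2 per doubling for PRMT1 TRCN0000035933 (edgeR adjusted p 0.00424) to -0.17 for PRMT2 TRCN0000035897 (edgeR adjusted p 0.0474). PRMT6 TRCN0000034686 rose on the TMM scale, by 0.26 log2 per doubling (edgeR adjusted p 0.0103), although its share of all tags was lower at PD60 than at PD40. CARM1 TRCN0000007168 had a slope of 0.43 and missed the threshold (edgeR adjusted p 0.0546). Without PD60 its slope was 0.59 (edgeR adjusted p 4.81e-05), and with DESeq2's Wald test its adjusted p was 8.06e-05. Scaled to column totals its slope was 0.074 (edgeR adjusted p 0.650). Its call thus depended on the last column and on the tool, and its slope on the scaling.

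Scaled to column totals, 33 of the 36 members fell and 0 rose, against 86.0% and 0.866% of all hairpins, with edgeR. The 12 falling members all fell under that scaling too, and the PRMT6 hairpin then had a slope of -0.084 (edgeR adjusted p 0.194). Without PD40 4 of 32 members tested fell, 2 of them among the 12, where 11.2% of all hairpins fell. Without PD45 (32 members tested), PD50 or PD55 7 of the 12 fell in each case, where 14.5%, 22.2% and 20.5% of all hairpins fell. Without PD60 11 of the 12 fell, where 29.0% of all hairpins did. Of the 12, PRMT1 TRCN0000035933, PRMT2 TRCN0000035898 and PRMT5 TRCN0000107086 could not be tested without PD40 or without PD45. They then missed the minimum of 10 tags in 2 columns, so their absence there is not a failed call.

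Other genes of arginine methylation were taken from a list of 24, of which 7 were in the table with 35 hairpins. They were JMJD6, proposed as an arginine demethylase; PADI4, which converts arginine to citrulline; SND1, a reader of symmetric dimethylarginine; the p160 coactivators NCOA1, NCOA2 and NCOA3, which bring CARM1 to nuclear receptors; and CTCFL, a partner of PRMT7. Of these 35 hairpins 32 were over 2-fold lower at PD60 and 1 was over 2-fold higher, beside 95.3% and 2.28% of all hairpins, with a median log2 fold change of -6.02 against -5.86 over all hairpins and -6.54 over the arginine methyltransferases. In the TMM trend 14 of 34 fell and 6 rose by edgeR at an adjusted p under 0.05, beside 30.5% and 11.4% of all hairpins. CTCFL had the lowest mean, -6.50 (SD 0.82, 5 hairpins), and PADI4 the highest, -2.33 (SD 5.07, 5 hairpins). PADI4 TRCN0000051678, chosen after its values were seen, was the 1 hairpin over 2-fold higher and went from 5359 tags at PD40 to 10063, 21466, 136991 and 136523, a ratio of 26.6 at PD60.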

How the data were processed

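The deposited values were whole-number counts of tags per hairpin (per the file headers), in 1 column for each population doubling. The submitters' processing notes name Bowtie 1.0.1. Its settings and the way 10 plates became 1 column are not stated in the sources used, so each column was taken as the authors' pooled value. Hairpin sequences were not used here. Counts were scaled to CPM by column totals, and log2 fold changes used a pseudocount of 1 CPM. This scale understates changes of hairpins that start low. The minimum was 10 tags in either column, or, for the trend, 10 in at least 2 columns. Ratios carry exact 95% Poisson intervals. Counts of 0 were set to 3 for bounds.

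The trend was fitted to all hairpins with edgeR 4.0.16 in R 4.3.3 (Benjamini-Hochberg adjustment over 3116 hairpins); DESeq2 1.42.0 was an alternative. The fit was tested on simulated data with 200 changed hairpins. At the fitted dispersion it found 31 of the 200 at a slope of 0.2 log2 per doubling and 192 at 0.4. False calls numbered 1 and 12. At 10% of that dispersion it found 198 and 200. A slope near 0.2 can thus go uncalled. In the simulation as many hairpins rose as fell, while in the data 30.5% of those tested were called falling and 11.4% rising. The false calls counted there therefore need not hold for the real columns. Python 3.11.15, numpy 2.4.6, pandas 2.3.3 and scipy 1.17.1 were used.

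Members and lists were chosen with earlier results of these data known. Hairpins given in every column were, per gene, the highest and lowest at PD60 among those meeting the minimum, the most abundant at PD40, and any over 2-fold higher at a later time. Of the list of other genes, the highest and lowest mean were named. All 8 symbols are current in the RefSeq table of GRCh38.p14. Alternatives covered scaling, pseudocount, count minimum, end points, quintiles against deciles, the tool, and left-out columns or hairpins.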

Additional observations from a re-analysis of the deposited data

How the results depend on the processing

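No paired analysis was possible because the 10 plates share 1 column per time. End points PD45 and PD50, counts raised to 3, and shares without 1 hairpin were chosen after seeing the data. For changes below, the cause was not tested. Over all alternatives but 1, 26 to 38 members were over 2-fold lower (38 in the report), where 64.8% to 95.1% of all hairpins were. At PD45 it was 25, where 63.2% of all hairpins were. Over 2-fold higher (0 in the report) there were 6 with TMM scaling, where 18.6% of all hairpins were. There was 1 without the 50 most abundant hairpins in the totals (5.76% of all hairpins). There was also 1 at PD45, PD50 or PD55 (5.73%, 4.94% and 2.92%), and 1 with late and early columns averaged (2.46%). TMM scaling (factor 8.76 at PD40, 0.0774 at PD60) moved the median of all hairpins from -5.86 to -1.87.

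The members' median of -6.54 was -2.13 with TMM scaling, -5.47 without the 50 most abundant hairpins, -4.41 with a pseudocount of 10 CPM, -6.40 with no minimum, -6.29 with counts under 3 raised to 3, -5.57 at PD55, -5.20 with late and early columns averaged, -3.39 at PD50 and -1.36 at PD45.

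Falling members (12) numbered 33 with total counts, and 4 to 14 with 1 column left out, where 86.0% and 11.2% to 29.0% of all hairpins fell (30.5% in the report). Rising members (1) numbered 0 with total counts, 2 with DESeq2's size factors, 3 with DESeq2's Wald test, and 1 to 4 with 1 column left out, where 0.866%, 13.5%, 15.8% and 7.22% to 17.9% of all hairpins rose (11.4% in the report). Of 78 gene means recomputed, 0 changed sign, 57 moved by less than the SD over hairpins and 21 by more. The unchanged sign says little about these genes, as the median over all hairpins was also negative (-5.86, and -1.87 with TMM scaling). With TMM scaling the mean was -0.053 for PRMT6 and -0.397 for CARM1, and from -1.39 (PRMT3) to -2.50 (PRMT2) for the other genes. The 38 that left out 1 hairpin all moved by less, but leaving out 1 of 3 or 5 values cannot move a mean by a full SD. They are therefore no check on the gene means.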
